A study of Mus musculus with 11 samples.

Results

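Retinas of 4-day-old mice (postnatal day 4, P4) in which ganglion cells carried an added potassium channel, Kir2.1, were compared gene by gene with control retinas of the same age. The comparison took 5 of the 11 RNA-seq libraries of the study by their titles, 3 labelled Brn3b-Kir2.1 and 2 labelled wild type, and only rows with a mouse Ensembl gene number entered. All mice were C57BL/6 by the labels, which name no sex. The labels do not say whether a library holds 1 animal or several or whether replicates were separate animals. The p-values below therefore measure only the spread between these samples. The Brn3b-Kir2.1 mice carry a human Kir2.1 cDNA fused to the fluorescent protein eYFP, placed behind a CAG promoter and a floxed STOP cassette, together with Brn3b-cre. The control is wild type in the genotype field, whereas the extraction protocol speaks of Brn3b-cre mice, so whether the controls also carried the Cre driver is not settled by the labels. The source field names retinal ganglion cells, but the protocol describes whole retinas dissociated with enzymes and no sorting. The other libraries, 3 of each genotype at a later age, share in the estimate of the spread, place the P4 libraries by age and give values at a second age for genes named at P4. That age is P8 in the age field and P11 in the protocol, and is called P8 below.

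Kir2.1 is an inwardly rectifying potassium channel that holds the membrane near the potassium equilibrium potential, so that a cell carrying it fires less readily. Ganglion cells are the output neurons of the retina, and around birth they fire in spontaneous waves that are relayed at this age mainly by acetylcholine from starburst amacrine cells acting on nicotinic receptors. By its title the study asked whether this correlated activity is needed for the wiring of visual axons to their targets outside image-forming pathways. Ganglion cells are born before birth and are a small share of retinal cells at P4, when late progenitors are still dividing and giving rise to rods, bipolar cells and Mueller glia.

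Counts on genes ranged from 11077574 to 12478838 in the 5 P4 libraries, and 22883 to 24591 genes had at least 1 count. Values per library are depth-scaled counts (CPM, with TMM factors) and are given in the order wild type replicate 1, wild type replicate 2, then Kir2.1 replicates 1, 2 and 3. Wild type replicate 2 stood apart. Among 3029 genes that differed between Kir2.1 P8 and Kir2.1 P4 libraries (edgeR, adjusted p under 0.05), its median position was 39.2% of the way from the Kir2.1 P4 to the Kir2.1 P8 mean (quartiles 17.0% and 60.8%), whereas wild type replicate 1 lay at -0.217%. The wild-type libraries are therefore shown separately throughout. Of the P8 libraries that share in the estimate of the spread, Kir2.1 P8 replicate 2 had the fewest counts, 9362215, and the most genes with a count, 31325. The wild-type P8 libraries also differed among themselves. The summed CPM of the rod list described below was 1999 in wild type P8 replicate 1 and 5763 and 11687 in replicates 2 and 3. In Kir2.1 P8 it was 11191 to 11583. The fit on the 5 P4 libraries alone uses no P8 library. The libraries also differed in sex-linked transcripts. Summed over the Y-linked genes (Uty, Kdm5d, Ddx3y and Eif2s3y), the CPM was 187 and 216 in wild type and 89.0, 0.691 and 107 in Kir2.1. Xist, transcribed from the inactive X chromosome, was at 532 and 661 CPM in wild type and 1589, 3242 and 1493 CPM in Kir2.1. Both wild-type libraries and Kir2.1 replicates 1 and 3 thus held Xist and Y-linked transcripts together, as a library from animals of both sexes would. At P4 sex-linked transcripts thus differed between the genotypes. At P8 the Y-linked sums were 43.2, 0.170 and 172 CPM in wild type and 143, 38.3 and 251 CPM in Kir2.1, and they overlapped. The log2 difference of Xist was 1.82 at P4 and -0.80 at P8. The part of sex-linked transcripts in the results below was not tested beyond an edgeR fit with the Y-linked sum as a covariate. Under that fit the number of genes at unadjusted p under 0.05 was 961 and no gene passed the adjusted threshold.

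No gene was called. Of 18188 genes tested with edgeR's quasi-likelihood test, 0 (0%) had an adjusted p under 0.05, the smallest being 0.458. DESeq2 called 19 genes on all 11 libraries and 69 on the 5 P4 libraries, and limma voom called 0. By the unadjusted edgeR p, 455 genes (2.5%) were higher and 859 (4.72%) lower in Kir2.1 at the 0.05 level. All Kir2.1 libraries lay above both wild-type libraries for 2251 genes (12.4%) and below both for 2610 (14.4%); these shares are the background for the counts of non-overlapping genes given below. The median log2 difference, Kir2.1 minus wild type, was 0.01 over all genes, and the median standard error of a gene was 0.29. In a further 1919 genes every Kir2.1 library lay between the wild-type libraries. Genes are called higher or lower below by their values alone, since no difference passed this edgeR test after adjustment.

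Ganglion cell markers were mostly lower in Kir2.1. All 20 markers of the list were tested. In 13 of them every Kir2.1 library lay below both wild-type libraries, and in 0 above both, beside 14.4% and 12.4% of all genes. The unadjusted edgeR p was under 0.05 in 14 of the 20, each lower in Kir2.1, beside 4.72% of all genes. Their median log2 difference was -0.94, beside 0.01 over all genes. The summed CPM of the list was 2451 and 1725 in wild type and 1279, 612 and 1397 in Kir2.1, so the wild-type mean was 1.91 times the Kir2.1 mean of 1096 ± 423 (SD, n = 3). Both wild-type sums lay above all Kir2.1 sums, and Kir2.1 replicate 2 was the lowest library in 19 of the 20 genes, beside 21.4% of all genes. In a bulk library, fewer ganglion cells and less of these transcripts per cell cannot be told apart.

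**Figure D1:**
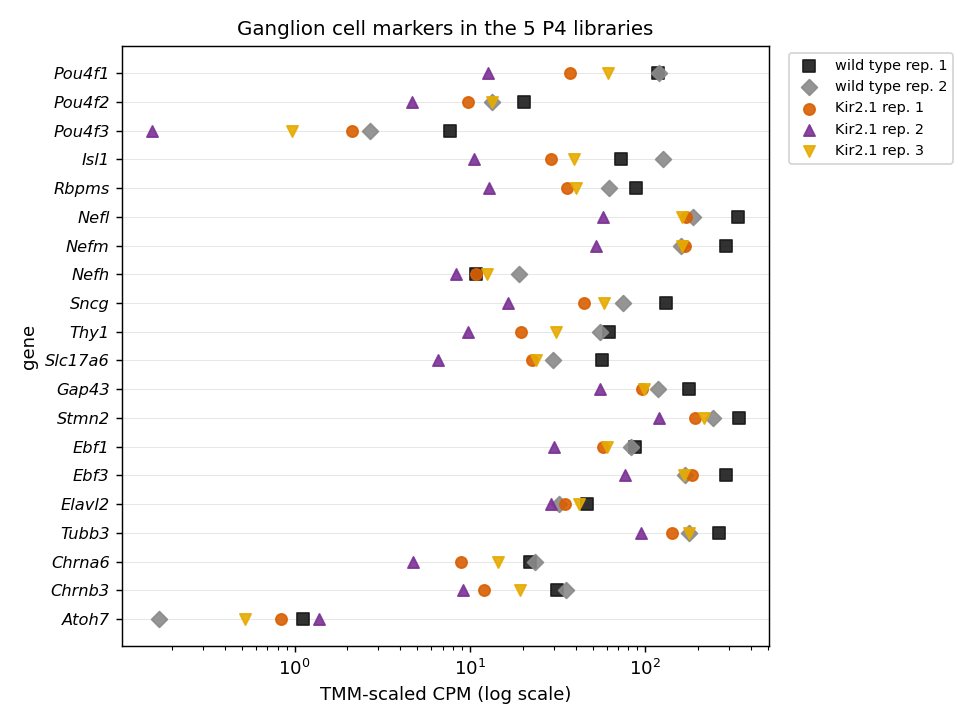
TMM-scaled CPM on a log axis of the 20 ganglion cell markers (rows) in each P4 library, with wild type replicates as black squares and grey diamonds and Kir2.1 replicates as colored circles and triangles. In 13 genes all Kir2.1 points lie left of both wild-type points, and Kir2.1 replicate 2 (upward triangle) is leftmost in 19 genes.

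Among the transcription factors of ganglion cells, Isl1, a LIM-homeodomain factor that works with Brn3b, was at 72.2 and 125 CPM in wild type and at 28.9, 10.6 and 38.9 CPM in Kir2.1. Its groups did not overlap, and its log2 difference was -1.92 ± 0.41 (SE; edgeR, unadjusted p = 5.12e-04, adjusted p = 0.583). Isl1 had the smallest p of the list, and bipolar and amacrine cells also express it. Pou4f1, the gene of Brn3a, was at 118 and 119 CPM against 37.4, 12.6 and 61.3 CPM, again without overlap. Rbpms, an RNA-binding protein found in nearly all ganglion cells, was at 88.0 and 61.8 CPM against 35.9, 12.8 and 40.0 CPM. Pou4f2 (Brn3b), whose regulatory sequence drives the Cre, was at 20.4 and 13.4 CPM in wild type and 9.77, 4.68 and 13.4 CPM in Kir2.1. Here Kir2.1 replicate 3 reached the level of wild type replicate 2, and an exact 2-sided permutation test of CPM gave p = 0.3, where 0.1 is the smallest value that 2 against 3 libraries allow. Atoh7, the proneural factor that opens ganglion cell genesis, was at or below 1.38 CPM in all 5 libraries.

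Axonal and surface proteins of ganglion cells followed the same order. Neurofilament light chain, Nefl, one of the 2 most abundant markers, was at 338 and 186 CPM in wild type and 171, 57.4 and 162 CPM in Kir2.1. Stmn2, a microtubule regulator of growing axons, was the other, at 342 and 243 CPM against 191, 119 and 216 CPM. In both genes the highest Kir2.1 library lay just below wild type replicate 2. The gap was wider for Thy1, a surface glycoprotein, at 61.6 and 54.7 CPM against 19.5, 9.75 and 31.0 CPM, and for Sncg, gamma-synuclein, at 132 and 74.8 CPM against 44.7, 16.5 and 58.3 CPM. Slc17a6 (VGLUT2), which loads glutamate into the vesicles of ganglion cells, was at 56.4 and 29.9 CPM against 22.6, 6.60 and 23.8 CPM. Tubb3, neuronal tubulin, was at 262 and 176 CPM against 141, 94.9 and 178 CPM, and Elavl2, an RNA-binding protein shared with amacrine cells, at 46.7 and 32.0 CPM against 34.9, 29.1 and 41.9 CPM. These groups overlapped.

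All Kir2.1 libraries lay below wild type replicate 1 in 18 of the 20 genes and below wild type replicate 2 in 14, beside 27.4% and 30.2% of all genes. The list median was -0.76 without wild type replicate 1, -1.19 without wild type replicate 2 and -0.65 without Kir2.1 replicate 2, the lowest library. Wild type replicate 2, the library nearer to P8, had the lower sum of the wild-type libraries, and at P8 the summed CPM of the list was 668 to 888 in wild type and 652 to 798 in Kir2.1, which overlapped.

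Photosensitive ganglion cells, which carry melanopsin and project to the brain centers for the daily clock and the pupil, were represented by 7 genes. In 4 of them the groups did not overlap, each lower in Kir2.1, and the list median was -0.90. Eomes (Tbr2), the factor that maintains these cells, was at 109 and 64.9 CPM in wild type and 62.1, 55.3 and 62.9 CPM in Kir2.1, with wild type replicate 2 just above the Kir2.1 libraries. Opn4, melanopsin itself, was at 72.9 and 22.8 CPM against 37.5, 6.37 and 33.9 CPM and overlapped. Igf1, with the smallest p of the list, was at 106 and 42.6 CPM against 51.6, 14.4 and 37.2 CPM and overlapped as well. Without wild type replicate 1 the list median was -0.32, and without wild type replicate 2 it was -1.49. Kir2.1 replicate 2 was the lowest library in 6 of the 7 genes, beside 21.4% of all genes, and the median without it was -0.60.

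**Figure D2:**
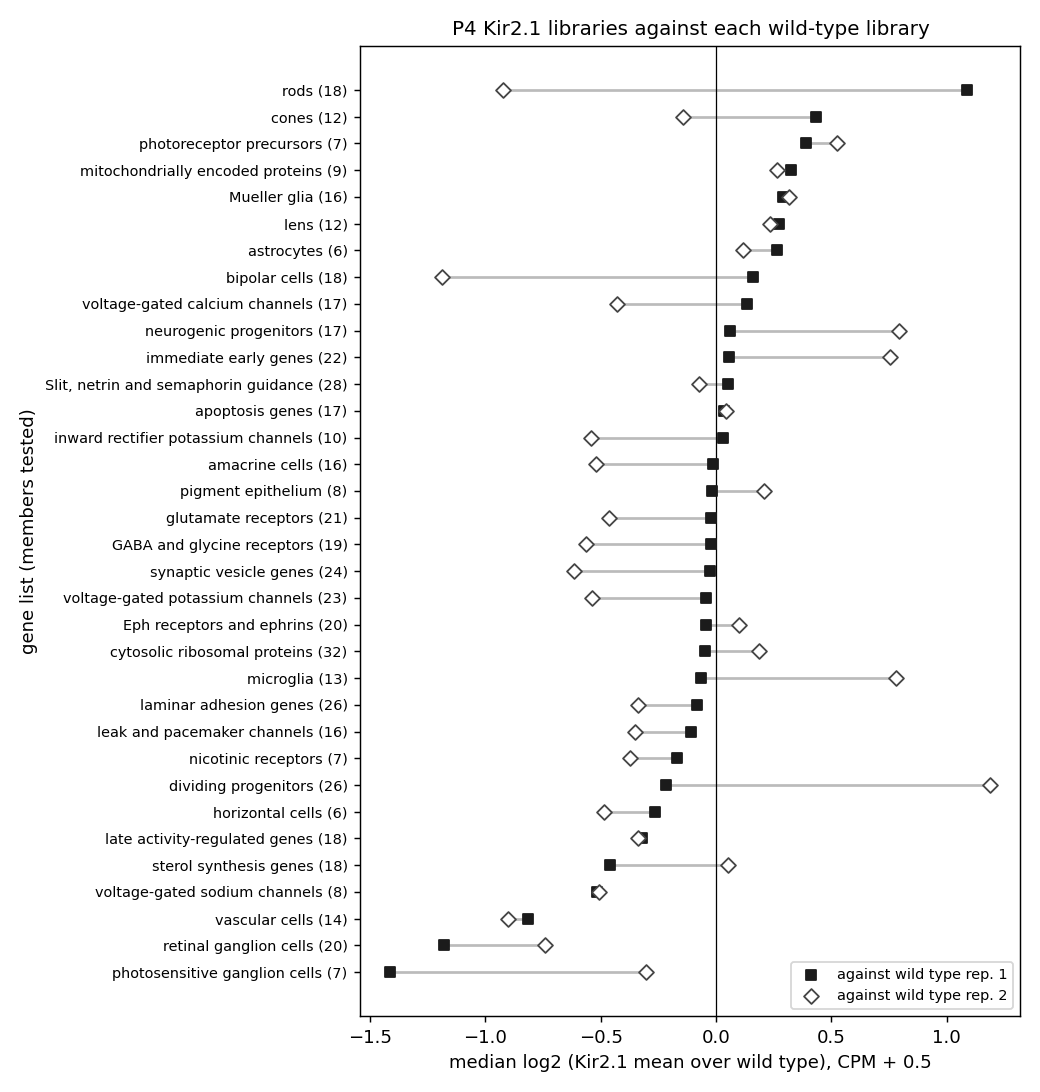
For each gene list with at least 5 tested members (rows, number tested in brackets), the median over its members of the log2 ratio of the Kir2.1 P4 mean to wild type replicate 1 (black squares) and to wild type replicate 2 (white diamonds). Both symbols lie left of 0 for ganglion cells, vascular cells, sodium channels and late activity-regulated genes, whereas for rods, bipolar cells and dividing progenitors they lie on opposite sides of 0.

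For several lists the sign depended on the wild-type library used. Of 18 rod genes, 16 had all Kir2.1 libraries above wild type replicate 1, beside 27.9% of all genes, and 16 had all of them below wild type replicate 2, beside 30.2%. Sag, rod arrestin, was at 59.8 and 338 CPM in wild type and 132, 196 and 131 CPM in Kir2.1. All its Kir2.1 values lay between the wild-type values. The most abundant members were Gnb1, a transducin subunit also made outside rods, at 640.1 and 765 CPM against 529, 605 and 651 CPM, and Rp1, a protein of the rod axoneme, at 73.4 and 303 CPM against 106, 221 and 172 CPM. The list median was 1.16 without wild type replicate 2 and -0.94 without wild type replicate 1. For bipolar cells the same medians were 0.21 and -1.55. Grm6, the glutamate receptor of ON bipolar cells, had 0 and 57.4 CPM in wild type and 0.0930, 0.461 and 0.175 CPM in Kir2.1. Trpm1, the channel that this receptor closes, had 1.71 and 47.9 CPM against 0.186, 0.461 and 0.700 CPM, so that wild type replicate 2 alone was high in both genes. Prdm8, an abundant regulator shared with other neurons, overlapped at 114 and 158 CPM against 113, 113 and 132 CPM.

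Dividing progenitors gave the reverse order. All 26 of their genes had every Kir2.1 library above wild type replicate 2, beside 28.6% of all genes, and 9 had every one below wild type replicate 1, beside 27.4%. Mki67, the proliferation marker, was at 1518 and 572 CPM in wild type and 1667, 1262 and 1350.2 CPM in Kir2.1. Top2a, the topoisomerase that untangles chromosomes before division, was at 659 and 219 CPM against 645, 508 and 495 CPM. In both genes wild type replicate 2 was the lowest library. Ccnd1, the cyclin of progenitor cell cycle entry, was at 663 and 336 CPM against 712, 751 and 584 CPM. Mcm5, a helicase subunit of DNA replication with the smallest p of the list, was the single member without overlap, at 37.4 and 23.0 CPM against 56.4, 56.6 and 38.4 CPM. The list median was -0.22 without wild type replicate 2 and 1.19 without wild type replicate 1. Microglial genes had a like dependence, with medians of -0.07 and 0.80. Wild type replicate 2 thus had more rod and bipolar transcripts and fewer cell cycle transcripts than all Kir2.1 P4 libraries.

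**Figure D3:**
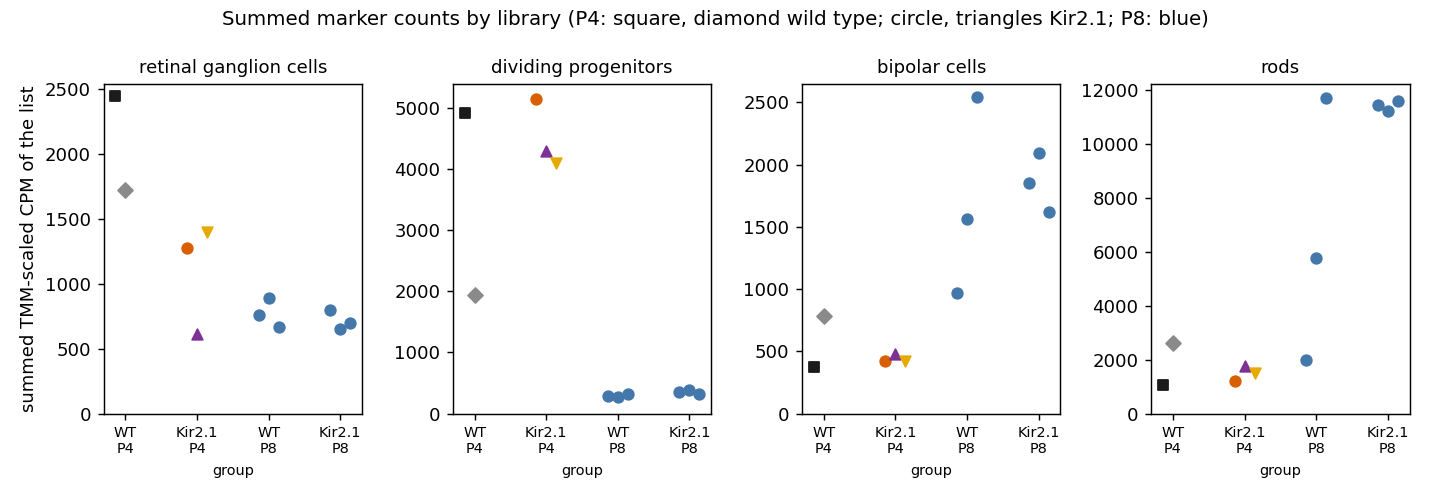
Summed TMM-scaled CPM of 4 marker lists (panels, linear axes from 0) in each of the 11 libraries by genotype and age; each point is a library, with the P4 libraries in the symbols of the marker plot and the P8 libraries in blue. For dividing progenitors, bipolar cells and rods wild type P4 replicate 2 (grey diamond) lies away from the other P4 libraries towards P8, and for ganglion cells both wild-type P4 points lie above all Kir2.1 P4 points.

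Photoreceptor precursors were among the lists with the same sign against both wild-type libraries, and higher in Kir2.1. Of 7 transcription factors that set photoreceptor fate, 5 had all Kir2.1 libraries above both wild-type libraries and none had them below, and the list median of 0.52 ranged from 0.35 to 0.66 when single libraries were left out. Kir2.1 replicate 2 was the highest library in all 7, beside 23.4% of all genes, and the 0.35 is the median without it. Prdm1 (Blimp1), which holds precursors to the photoreceptor path, was at 72.4 and 57.7 CPM in wild type and 104, 140 and 100 CPM in Kir2.1. Otx2, needed for photoreceptor and bipolar fate, was at 151 and 119 CPM against 157, 244 and 179 CPM. Crx, the photoreceptor regulator downstream of Otx2, was at 148 and 235 CPM against 202, 338 and 302 CPM and overlapped. Casz1, a zinc finger factor of late-born cells, was at 191 and 178 CPM against 253, 301 and 214 CPM, and Rax, a homeobox factor of the early and photoreceptor-forming retina, at 121 and 75.7 CPM against 157, 181 and 138 CPM, both without overlap. Unadjusted edgeR p-values were above 0.05 in all 7, with a smallest adjusted p of 0.711. Mueller glial genes had 3 of 16 without overlap, each higher in Kir2.1, and a median of 0.28 that was 0.08 without Kir2.1 replicate 2. Dkk3, a secreted protein of progenitors and Mueller glia, was at 357 and 314 CPM against 379.9, 558 and 435 CPM. Apoe, a lipid carrier made by glia, was at 376 and 449 CPM against 581, 439 and 496 CPM and overlapped.

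Voltage-gated sodium channels, which carry the upstroke of the action potential, were lower in Kir2.1 in 6 of 8 tested members without overlap, beside 14.4% of all genes. The list median was -0.52 and stayed between -0.65 and -0.42 when single libraries were left out. Scn2a, the channel of young axons, was at 118 and 100.2 CPM in wild type and 76.1, 52.4 and 79.1 CPM in Kir2.1. The log2 difference was -0.66 ± 0.25 (SE; edgeR, unadjusted p = 0.0205, adjusted p = 0.677), and all Kir2.1 values lay below both wild-type values. Scn3a, an embryonic and perinatal channel, was at 158 and 154 CPM against 118, 99.3 and 132 CPM, and Scn9a at 52.2 and 38.8 CPM against 30.6, 18.7 and 27.6 CPM. The members that overlapped were Scn1a, at 39.9 and 73.8 CPM against 38.7, 43.5 and 56.7 CPM, and Scn8a, at 124 and 178 CPM against 135, 130 and 148 CPM; both are channels of mature neurons.

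Of 23 voltage-gated potassium channel genes, 8 were lower without overlap and none higher. Kcnq3, a subunit of the M-current channels that dampen repetitive firing, was at 54.5 and 53.1 CPM against 33.5, 24.1 and 37.6 CPM. Kcnh1, a slow delayed rectifier with the smallest p of the list, was at 22.2 and 59.2 CPM against 20.0, 9.13 and 16.6 CPM, and Kcnd3, an A-type channel, overlapped at 96.4 and 128 CPM against 116, 103 and 126 CPM. The list median of -0.32 was -0.04 without wild type replicate 2 and -0.55 without wild type replicate 1. Kir2.1 replicate 2 was the lowest library in 14 of the 23 genes, beside 21.4% of all genes, and the median without it was -0.22. The list of leak and pacemaker channels had a median of -0.34 that was -0.11 without wild type replicate 2, and 5 of its 16 members were lower without overlap, with Hcn3, a hyperpolarization-activated channel, at 29.4 and 27.2 CPM against 19.1, 12.8 and 17.8 CPM and Kcnk2 (TREK-1), a leak channel, at 33.1 and 27.5 CPM against 12.1, 8.06 and 16.4 CPM. Kcnma1, the large-conductance calcium-activated channel and an abundant member, overlapped at 74.1 and 239.7 CPM against 88.9, 81.4 and 102 CPM. Of 10 inward rectifiers, 3 were lower without overlap, with a median of -0.38 that was 0.07 without wild type replicate 2, -0.63 without wild type replicate 1 and -0.21 without Kir2.1 replicate 2. Kcnj2, the mouse gene of Kir2.1, was at 5.81 and 10.6 CPM in wild type and 6.42, 2.46 and 6.21 CPM in Kir2.1, with overlapping groups (exact 2-sided permutation p = 0.5). The transgene is a human cDNA, so Kcnj2 does not check the labels.

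Genes of the cholinergic waves differed in more than 1 direction. Of 7 nicotinic receptor genes, 3 were lower and 1 higher in Kir2.1 without overlap. Chrna4 and Chrnb2, subunits of the common neuronal nicotinic receptor, were at 81.1 and 97.4 CPM against 49.5, 57.8 and 71.8 CPM and at 73.4 and 83.1 CPM against 54.1, 51.6 and 62.0 CPM, both without overlap. Chrna6 and Chrnb3, subunits enriched in ganglion cells and counted in the ganglion cell list, were also lower without overlap: Chrna6 was at 22.0 and 23.4 CPM against 8.84, 4.76 and 14.4 CPM, and Chrnb3 at 31.3 and 35.4 CPM against 12.1, 9.13 and 19.2 CPM. Chrnb4 went the other way, at 19.8 and 30.0 CPM in wild type and 37.0, 49.3 and 44.6 CPM in Kir2.1. Its neighbor in the same gene cluster, Chrna3, overlapped at 33.9 and 24.5 CPM against 28.1, 28.6 and 33.4 CPM. On the presynaptic side, Slc18a3, the vesicular acetylcholine transporter of starburst cells, was at 5.22 and 11.4 CPM against 1.21, 0.307 and 2.89 CPM, and Chat, which makes acetylcholine, at 2.05 and 10.2 CPM against 1.67, 0 and 1.05 CPM. Both are low, and wild type replicate 2 was highest in each.

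Of 16 amacrine genes, which include Slc18a3 and Chat, 4 were lower and 1 higher in Kir2.1 without overlap, and the list median of -0.28 was -0.01 without wild type replicate 2 and -0.57 when wild type replicate 1 was left out. The most abundant, Tfap2b and Pax6, both transcription factors, overlapped: Tfap2b was at 861 and 1105 CPM against 911, 989 and 1060.3 CPM, and Pax6 at 989.8 and 1096 CPM against 1138, 1019.9 and 1139 CPM. Calb2, calretinin, a calcium buffer of starburst and other amacrine cells and of many ganglion cells, had the smallest p of the list, at 154 and 194 CPM in wild type and 67.1, 53.7 and 80.8 CPM in Kir2.1. Its lowest wild-type value was well above its highest Kir2.1 value.

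Activity-regulated genes fall into immediate early genes, mostly transcription factors, switched on by calcium and growth signals within minutes, and late genes. Many late genes encode secreted and synaptic proteins, but the late list used here also holds others, such as Crem, Sik1 and Cdkn1a. Of 18 late genes, 5 were lower in Kir2.1 without overlap and none higher, and their median was -0.35, between -0.46 and -0.20 when single libraries were left out, the -0.20 without Kir2.1 replicate 2. Scg2, secretogranin II, a precursor of secreted neuropeptides, was at 83.7 and 145 CPM in wild type and 40.4, 28.0 and 47.3 CPM in Kir2.1. Its log2 difference was -1.57 ± 0.53 (SE; edgeR, unadjusted p = 0.0114, adjusted p = 0.677), and every Kir2.1 value lay below both wild-type values. Nptx1, a pentraxin that clusters glutamate receptors, was at 50.3 and 53.7 CPM against 36.2, 37.0 and 42.7 CPM. Nrn1 (neuritin), a surface protein made by ganglion cells, was at 24.6 and 14.2 CPM against 12.4, 1.38 and 9.80 CPM, and Bdnf was below 5 CPM in all libraries. Homer1, a scaffold of glutamate synapses and the second most abundant late gene, overlapped at 50.1 and 66.9 CPM against 56.0, 46.4 and 56.8 CPM.

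A classic promoter element of activity-regulated genes is the cyclic AMP response element, TGACGTCA, which reads the same on both strands and is bound by CREB. The full 8 letters stood in the RefSeq promoter window (GRCm38.p6, 250 bases before to 50 after the start) of 549 of 27025 genes with a window (2.03%). Of the late genes, 10 had a window and 2 held the element, Scg2 (minus strand, chr1:79439977-79440276) and Pcsk1 (plus strand, chr13:75089607-75089906), which encodes a convertase that cuts neuropeptide precursors. These promoters are shown because they are the late-gene windows with the element; it is in capitals and begins 68 and 78 bases before the start.
Scg2: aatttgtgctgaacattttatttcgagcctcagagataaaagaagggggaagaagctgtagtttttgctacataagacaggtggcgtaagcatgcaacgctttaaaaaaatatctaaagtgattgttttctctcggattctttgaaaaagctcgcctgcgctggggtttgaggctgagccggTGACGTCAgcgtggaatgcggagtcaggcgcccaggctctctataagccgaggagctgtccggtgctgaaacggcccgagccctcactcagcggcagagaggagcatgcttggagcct
Pcsk1: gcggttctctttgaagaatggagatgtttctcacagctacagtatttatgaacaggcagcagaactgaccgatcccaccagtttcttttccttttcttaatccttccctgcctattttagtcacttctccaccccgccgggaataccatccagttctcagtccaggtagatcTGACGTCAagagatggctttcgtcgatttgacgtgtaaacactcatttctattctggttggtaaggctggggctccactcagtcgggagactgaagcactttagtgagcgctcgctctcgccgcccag
Pcsk1 was at 1.88 and 2.11 CPM in wild type and 1.95, 0.461 and 2.01 CPM in Kir2.1, so the pair that shared the element did not share the separation seen for Scg2. Of the immediate early genes described next, 18 had a window and 2 held the element, Maff and Dusp1.

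Immediate early genes were not lower as a group. Of 22, 7 were higher in Kir2.1 without overlap and 1, Nr4a3, lower. Egr1, a zinc finger factor, was at 175 and 132 CPM in wild type and 230, 299 and 223 CPM in Kir2.1. Fos was at 85.2 and 56.9 CPM against 76.4, 117 and 87.7 CPM and overlapped, as did Jun, at 241 and 125 CPM against 278, 216 and 190 CPM. The list median of 0.35 was 0.77 without wild type replicate 1 and 0.06 without wild type replicate 2. Wild type replicate 2 was the lowest library in 16 of the 22, beside 23.0% of all genes. Nr4a3, a nuclear receptor with the smallest p of the list, was at 18.5 and 8.88 CPM against 6.05, 2.92 and 8.75 CPM. Enzymatic dissociation can itself switch these genes on. Of 9 heat shock and stress genes of dissociation, 1 was higher without overlap and their summed CPM was 879 and 683 in wild type and 944, 832 and 624 in Kir2.1; their part in the immediate early values was not tested.

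Among adhesion molecules of retinal layers and axons, 9 of 26 were lower in Kir2.1 without overlap and none higher, with a median of -0.26 that was -0.08 without wild type replicate 2. Chl1, an L1-family adhesion molecule of growing axons, was at 112 and 46.9 CPM in wild type and 46.6, 17.9 and 36.2 CPM in Kir2.1, and L1cam, its relative on ganglion cell axons, at 320 and 244 CPM against 187, 129 and 202 CPM. Cntnap2, which gathers potassium channels along axons, was at 131 and 151 CPM against 88.4, 60.9 and 95.3 CPM. All Kir2.1 values lay below both wild-type values in these 3 genes, though Chl1 in Kir2.1 replicate 1 came close to wild type replicate 2. The most abundant members, Ncam1 at 1450.3 to 1552 CPM in all libraries and Cdh2 at 328 to 508 CPM, overlapped. Guidance genes were split in direction. Over 20 Eph receptors and ephrins the median was 0.05, with 11 higher and 9 lower in Kir2.1. Of these, 1 was higher and 4 lower without overlap. Over 28 genes of the Slit, netrin and semaphorin families the median was -0.04, with 12 higher and 16 lower. Of these, 2 were higher and 5 lower without overlap, beside 12.4% and 14.4% of all genes.

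Of 24 synaptic vesicle genes, 8 were lower without overlap, among them Rab3a, a GTPase of vesicle release, at 178 and 213 CPM against 121, 110 and 151 CPM. The most abundant, Pclo (piccolo, an active zone scaffold) and Syt1 (a calcium sensor of release), overlapped: Pclo was at 662 and 846 CPM against 797, 624 and 748 CPM, and Syt1 at 566 and 956 CPM against 519, 495 and 619.7 CPM. Their median of -0.41 was -0.02 without wild type replicate 2 and -0.62 without wild type replicate 1, and wild type replicate 2 lay above every Kir2.1 library in 20 of the 24, beside 30.2% of all genes. Glutamate receptor genes had 6 of 21 lower and 1 higher, with a median of -0.36 that was -0.02 without wild type replicate 2. Grm5, a metabotropic receptor, was at 6.84 and 13.4 CPM against 2.51, 2.15 and 6.82 CPM. The AMPA receptor subunits Gria2, at 355 and 573 CPM against 364, 363 and 452 CPM, and Gria4, at 215 and 323 CPM against 239, 223 and 255 CPM, overlapped.

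Vascular genes, from endothelial cells and pericytes that enter the retina in the first postnatal week, were lower without overlap in 6 of 14. Esam, an endothelial junction protein, was at 6.16 and 5.75 CPM in wild type and 3.16, 1.84 and 0.0875 CPM in Kir2.1, and Pecam1 at 11.6 and 12.1 CPM against 6.98, 4.84 and 2.62 CPM. Kir2.1 replicate 3 was the lowest library in 9 of the 14 genes, beside 15.0% of all genes, and the list median of -0.96 was -0.64 without it and -1.54 without Kir2.1 replicate 1. Cdh5, the endothelial cadherin, was as high in Kir2.1 replicate 1 as in wild type, at 14.3 and 18.0 CPM against 19.3, 2.84 and 1.14 CPM. Col4a1, a basement membrane collagen, was at 133 and 127 CPM against 109, 53.3 and 40.9 CPM, with Kir2.1 replicate 1 nearest to wild type. Kdr, a vascular growth factor receptor that neural retina also expresses, overlapped at 509 and 367 CPM against 542, 713 and 424 CPM.

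Mitochondrially encoded proteins of the respiratory chain were higher in Kir2.1 without overlap in 6 of 9 tested members, with a median of 0.34 (0.25 to 0.39 when single libraries were left out). Mt-Co1, a subunit of the terminal oxidase, was at 1682 and 1640.0 CPM in wild type and 2385, 1986 and 1949.9 CPM in Kir2.1, and mt-Cytb at 2141 and 2137 CPM against 2725, 2280.3 and 2306 CPM. All Kir2.1 values were above both wild-type values in these genes. Mt-Nd6, the complex I subunit with the smallest p of the list, was at 80.5 and 79.6 CPM against 112, 128 and 111 CPM, and mt-Nd1 at 1614 and 1839 CPM against 2180.3, 2027 and 2078 CPM. The share of small structural RNAs moved the other way: annotated ribozyme genes took 3266 and 3076 CPM before TMM scaling in wild type and 1942, 1779 and 1216 in Kir2.1, and snoRNA genes 395 and 372 against 277, 252 and 222. Both measures describe the RNA in the libraries, and their part in the other results was not tested.

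Ranked by unadjusted p, the genes that averaged 5 CPM or more and had no overlap were led on the lower side by Nell2, Ablim1, Abcc8, Atp6v0b, Slc41a2, Pcp4, Tmem38a, Cdh10, Rabac1 and Ube2a. Their log2 differences ran from -2.28 to -0.63 and their adjusted edgeR p from 0.458 to 0.576. Nell2 (ENSMUSG00000022454; GRCm38, chromosome 15, 95075230 to 95528559, minus strand), a secreted protein of neurons, was at 62.9 and 55.8 CPM in wild type and 23.5, 20.6 and 34.5 CPM in Kir2.1, a log2 difference of -1.18 ± 0.21 (SE). Ablim1 (ENSMUSG00000025085; chromosome 19, 57032733 to 57314919, minus strand), an actin-binding LIM protein, was at 135 CPM in both wild-type libraries and 77.0, 61.5 and 80.0 CPM in Kir2.1, a log2 difference of -0.89 ± 0.16 (SE). Abcc8 (ENSMUSG00000040136; chromosome 7, 46104523 to 46180033, minus strand), the sulfonylurea receptor that pairs with inward rectifiers to form ATP-sensitive potassium channels, was at 10.7 and 16.5 CPM against 3.91, 1.996 and 2.54 CPM, a log2 difference of -2.28 ± 0.42 (SE). In these 3 genes the wild-type libraries lay closer to each other than to any Kir2.1 library. Pcp4, a calmodulin regulator, was at 8.72 and 17.3 CPM against 3.91, 2.92 and 4.02 CPM. Cdh10, a cadherin, was at 12.8 and 15.8 CPM against 5.12, 6.22 and 7.35 CPM, and Atp6v0b, a proton pump subunit, at 84.5 and 77.3 CPM against 47.2, 51.2 and 58.5 CPM.

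The corresponding genes on the higher side were Gnai3, Ccdc136, Zfp146, Chrnb4, Inhbb, Foxn2, Nin, Hbp1, Timeless and Top3a, with log2 differences from 0.48 to 1.01 and adjusted edgeR p from 0.583 to 0.677. Gnai3 (ENSMUSG00000000001; chromosome 3, 108107280 to 108146146, minus strand), an inhibitory G protein subunit, was at 34.2 and 48.6 CPM in wild type and 67.3, 82.0 and 71.3 CPM in Kir2.1, a log2 difference of 0.83 ± 0.18 (SE). Inhbb (ENSMUSG00000037035; chromosome 1, 119415465 to 119422248, minus strand), the beta B chain of activins and inhibins, was at 12.2 and 14.4 CPM against 24.1, 29.9 and 26.5 CPM, a log2 difference of 1.01 ± 0.25 (SE). Chrnb4 (ENSMUSG00000035200; chromosome 9, 55028154 to 55048779, minus strand), whose values are given above, had a log2 difference of 0.81 ± 0.19 (SE). Nin, ninein, a centrosome protein, was at 276 and 249 CPM against 406, 370 and 358 CPM.

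**Figure D4:**
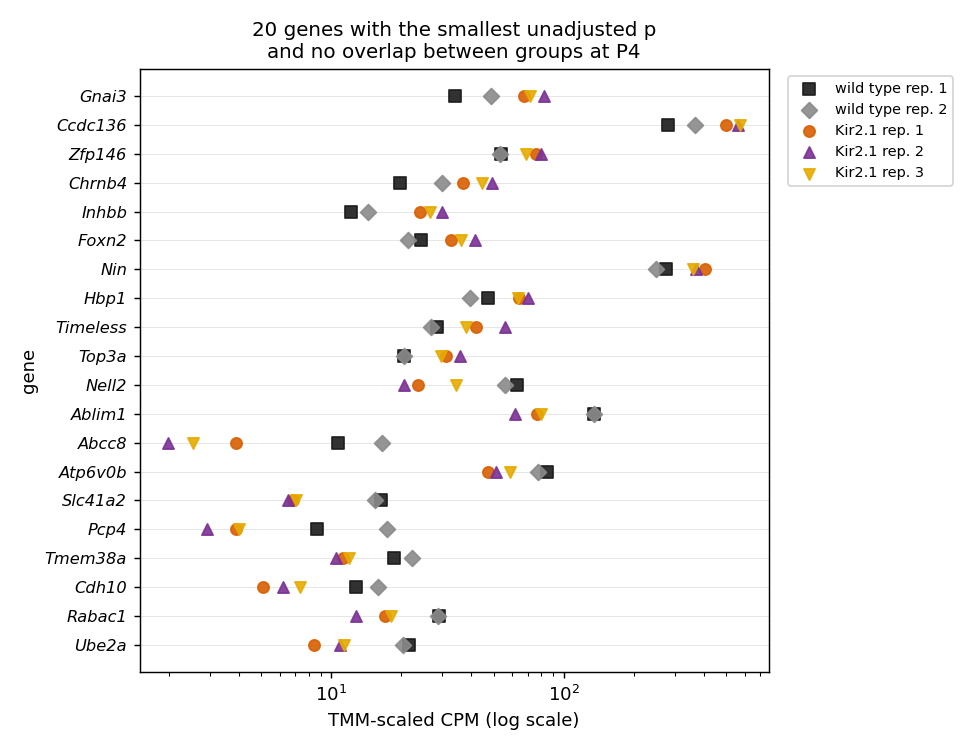
TMM-scaled CPM on a log axis in each P4 library for the 10 higher (upper rows) and 10 lower (lower rows) genes chosen by the smallest unadjusted p among genes without overlap; the separation of the symbols was a condition of the choice. The largest separation is that of Abcc8, at 10.7 and 16.5 CPM in wild type and 1.996 to 3.91 CPM in Kir2.1.

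These genes were chosen by their P4 differences, and the P8 libraries entered the choice only through the shared estimate of the spread. Genes with a small spread at P8 were thereby favored, so the P8 counts below are not independent of the choice. Of the 10 lower genes 9 had a negative log2 difference at P8, and of the 10 higher genes 8 had a positive one, beside 61.9% of all genes with the same sign at both ages. The groups did not overlap in the same direction at P8 for 2 of the 10 on each side, beside 5.11% of all genes lower and 5.5% higher. The unadjusted edgeR p at P8 was under 0.05 for 1 of the lower and 3 of the higher genes in the same direction, beside 3.93% and 2.89% of all genes. Chrnb4 was at 21.3, 22.6 and 25.9 CPM in wild type P8 and 34.6, 33.7 and 33.2 CPM in Kir2.1 P8, a log2 difference of 0.54 ± 0.17 (SE; edgeR, unadjusted p = 0.00825, adjusted p = 0.699). Inhbb was at 10.99, 17.2 and 20.7 CPM against 22.7, 27.3 and 23.3 CPM, and Cdh10 at 9.07, 11.7 and 10.1 CPM against 7.45, 8.14 and 6.43 CPM. All Kir2.1 P8 values of these 3 genes lay on the same side as at P4. Nell2 did not keep its direction, at 20.9, 16.4 and 15.9 CPM against 22.6, 19.8 and 21.9 CPM. The difference between the P4 and P8 effects was tested as an interaction, and 0 genes had an adjusted edgeR p under 0.05, although 9 of the lower and 7 of the higher genes had an unadjusted one under 0.05 (562 of all genes, 3.09%), in a test that shares the P4 values by which they were chosen.

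At P4 the authors' deposited table called 163 genes higher (1.18%) and 151 lower (1.09%) of 13830 with an adjusted p. The edgeR fit above called none. DESeq2, the method named in the processing notes, called 7 higher (0.0444%) and 62 lower (0.393%) of 15780 on the 5 P4 libraries. Which libraries entered that table is not given in the sources used here, and its values differ from the deposited counts for some genes, so the counts of the 5 libraries are set beside its calls only as a description. Of the 163 genes higher in the authors' deposited table, wild type replicate 2 was below all Kir2.1 libraries in 163, beside 28.6% of all genes, and wild type replicate 1 in 39, beside 27.9%. Wild type replicate 1 was within the Kir2.1 range in 92 and above it in 32. Of the 150 lower genes that were also tested here, wild type replicate 2 was above all Kir2.1 libraries in 148, beside 30.2% of all genes, and wild type replicate 1 in 84, beside 27.4%. Of the 163, 16 were among the 26 genes of dividing progenitors.

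**Figure D5:**
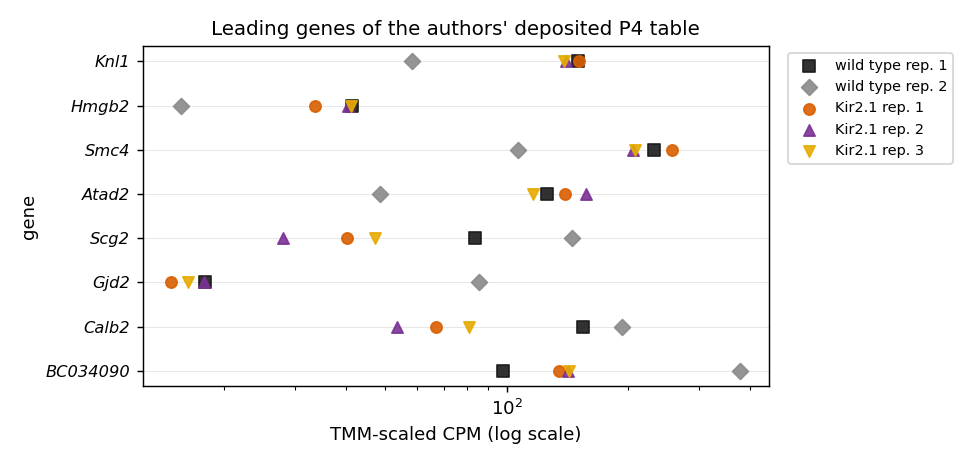
TMM-scaled CPM on a log axis in each P4 library for the 4 higher (Knl1, Hmgb2, Smc4, Atad2) and 4 lower (Scg2, Gjd2, Calb2, BC034090) genes with the smallest adjusted p in the authors' deposited table. In the 4 higher genes wild type replicate 1 (black square) lies among or beside the Kir2.1 points and only wild type replicate 2 (grey diamond) lies to the left, whereas in Scg2 and Calb2 both wild-type points lie to the right of all Kir2.1 points.

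Knl1, a kinetochore protein, had a log2 fold change of 1.20 and an adjusted p of 1.57e-09 in the authors' deposited table, and was at 150 and 58.2 CPM in wild type and 151, 140 and 139 CPM in Kir2.1. Smc4, a condensin subunit, had 1.08 in the authors' deposited table and was at 231 and 107 CPM against 256, 206 and 207 CPM. In both genes wild type replicate 1 lay within the range of the Kir2.1 libraries. On the lower side, Gjd2 (connexin 36), the gap junction protein of amacrine and bipolar cells, had -1.99 in the authors' deposited table and was at 18.0 and 85.4 CPM against 14.8, 17.8 and 16.3 CPM. Scg2 and Calb2, given above, had -1.63 and -1.31 there and were the leading genes for which both wild-type libraries lay clearly above the Kir2.1 libraries.

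DESeq2 run on the 5 P4 libraries alone called 7 genes higher (0.0444%) and 62 lower (0.393%) of 15780, and in all 69 the groups did not overlap. The 2 with the smallest adjusted p were Calb2 (log2 difference -1.37 ± 0.20, DESeq2 adjusted p = 3.09e-07) and Scg2 (-1.57 ± 0.26, DESeq2 adjusted p = 1.47e-05). Ganglion cell markers called lower by DESeq2 were Thy1 (adjusted p = 0.00544) and Chrnb3 (adjusted p = 0.0147). DESeq2 also called Abcc8, Ablim1, Nell2, Pcp4 and Slc41a2 lower and Gnai3, Ccdc136 and Inhbb higher from the 20 genes listed above. From the channel, adhesion and vesicle lists it called Kcnh1, Kcnk2, Cntnap2, Rims1 and Sv2c lower, and Prdm1 and Egr1 were called higher. It also called Trpm1 lower (adjusted p = 0.0423), a gene in which, by the values above, wild type replicate 2 alone was high. With 5 libraries the spread of a gene rests on 3 residual degrees of freedom, and the edgeR fit on the same 5 libraries called no gene.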

How the data were processed

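Bulk RNA-seq of dissociated mouse retina was analysed from 1 table per library of read counts per Ensembl gene, deposited by the authors. Per the submitters' processing notes, cutadapt 1.18, STAR 2.5.0c, SAMtools 1.9, bedtools 2.26.0, HTSeq 0.6.1 and DESeq2 were used with genome build mm10; the annotation and strand setting are not given in the sources used here, so a gene and an antisense neighbor cannot be told apart. Records on no single gene (74.6% to 76.8% of a P4 file) were left out. The authors' deposited P4 comparison table holds, per the file headers, a mean normalized count (a signal in the authors' scaling), the log2 fold change and its error, a test statistic (a score) and a p-value, raw and adjusted; only its own values are quoted from it.

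The gene counts were fitted in edgeR 4.0.16 under R 4.3.3 (filterByExpr by group, TMM, quasi-likelihood, 4 group means over all 11 libraries), with Benjamini-Hochberg adjustment over 18188 genes. CPM values per library are scaled by TMM, and ratios to single wild-type libraries used a pseudocount of 0.5 CPM. The script was tested on simulated data with a smaller spread than these data, so that test does not show how many true differences would be missed here. Alternatives were other scalings, filters, a Y-linked covariate, a replicate block, limma voom 3.58.1, DESeq2 1.42.0, and each P4 library left out. Symbols and coordinates came from GENCODE M21 (GRCm38), promoters from RefSeq.

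The comparison, the gene lists and the naming rule were chosen with earlier results of these data known. The rule names the 10 higher and 10 lower genes with the smallest unadjusted p among genes of at least 5 CPM without overlap. It also names the 4 leading genes each way of the authors' table, Kcnj2, Pou4f2, Xist and Y-linked genes. In each list it names the 2 most abundant members and that with the smallest p. A few genes that this rule names are not reported here. Other list members and genes named from the DESeq2 calls were chosen after their values were seen. The lists for cones, horizontal cells, neurogenic progenitors, astrocytes, erythrocytes, lens, pigment epithelium, calcium channels, inhibitory receptors, apoptosis, ribosomal proteins and sterol synthesis are given in the closing section or the plot of list medians.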

Additional observations from a re-analysis of the deposited data

How the results depend on the processing

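With 2 wild-type and 3 Kir2.1 libraries, 18188 genes and a median standard error of 0.29, no gene passed the adjusted threshold in edgeR under other scalings, a 1 CPM minimum, removal of genes above 1% of a library, the Y-linked covariate, voom or the 5 P4 libraries alone. Without a filter 339 genes were called and 2131 had an unadjusted p under 0.05, and the cause was not tested. DESeq2 called 19 genes on all 11 libraries and 69 on the 5 P4 libraries; the cause was not tested. With single P4 libraries left out, 0 to 6 genes were called, the 6 without wild type replicate 1, and 739 to 1565 genes had an unadjusted p under 0.05, the 739 without Kir2.1 replicate 2. The number of genes without overlap, 4861, was 6607 to 10695 with a library left out, since fewer libraries have to be separated. Where a wild-type library was left out, the remaining one is assumed to vary like the other groups. Of the list medians, 58 of 591 values under the alternatives moved by more than the spread between libraries.

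The deviations of same-numbered libraries had a correlation of 0.15 for number 1 and 0.07 for number 2; with only 2 numbers this does not settle whether the numbers pair the libraries. With the replicate block 0 genes were called (smallest adjusted p 0.761 in edgeR) and 1139 had an unadjusted p under 0.05.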

Other observations

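The following 4 genes, outside the lists and called lower by DESeq2 on the 5 P4 libraries, were chosen after their values were seen. Kif5a, a neuronal kinesin motor, was at 478 and 388 CPM in wild type and 279, 184 and 290 CPM in Kir2.1 (DESeq2 adjusted p = 0.0351). Tubb2a, a tubulin of growing neurons, was at 188 and 218 CPM against 89.8, 92.0 and 127 CPM (DESeq2 adjusted p = 8.85e-04). Rbpms2, an RNA-binding relative of Rbpms, was at 37.3 and 31.5 CPM against 10.9, 8.44 and 18.5 CPM (DESeq2 adjusted p = 0.00544), and Cpne4, a copine found in ganglion cells, at 32.1 and 30.8 CPM against 11.1, 5.07 and 14.7 CPM. In all 4 genes every Kir2.1 library lay below both wild-type libraries, with Kir2.1 replicate 2 lowest in 3 of them.

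Small structural RNAs stood beside these. Rpph1, the RNA of RNase P, was at 2836 and 2685 CPM in wild type and 1751, 1538 and 1099 CPM in Kir2.1 (DESeq2 adjusted p = 0.00154), and Rmrp, the RNA of RNase MRP, at 390 and 362 CPM against 247, 162 and 116 CPM. Neat1, a nuclear RNA that builds paraspeckles, was higher in Kir2.1, at 14.2 and 9.22 CPM against 28.6, 25.4 and 36.6 CPM (DESeq2 adjusted p = 0.00233).

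Sterol synthesis genes had all Kir2.1 libraries below wild type replicate 1 in 15 of 18, beside 27.4% of all genes, and above it in none. All Kir2.1 libraries lay below wild type replicate 2 in 3, beside 30.2%, and above it in 7, beside 28.6%. The list median was -0.46 against wild type replicate 1 and 0.05 against wild type replicate 2. Hmgcs1, an early enzyme of the pathway, was at 261 and 140 CPM in wild type and 151, 106 and 162 CPM in Kir2.1. Of 17 apoptosis genes, 4 were higher and 2 lower in Kir2.1 without overlap, with a median of 0.05. Of 32 cytosolic ribosomal protein genes, 5 were higher and 2 lower, with a median of 0.06. Of 17 neurogenic progenitor genes 2 were higher without overlap, beside 12.4% of all genes. Of 17 calcium channel genes 4 and of 19 inhibitory receptor genes 3 were lower, beside 14.4%. These lists depended on the wild-type library. Against wild type replicates 1 and 2 the medians were 0.06 and 0.79 for neurogenic progenitors and 0.13 and -0.43 for calcium channels. For inhibitory receptors they were -0.02 and -0.56. Cones had 1 of 12 higher and 1 lower, astrocytes 1 of 6 higher, horizontal cells 0 of 6, lens 0 of 12, and pigment epithelium 2 of 8 higher and 1 lower. Of 7 erythrocyte genes only 1 passed the filter.

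Some mitochondrial genes were nearly absent from the deposited counts. Mt-Co2, mt-Co3 and mt-Atp6 averaged 4.6, 5.8 and 14 raw counts over the 5 P4 libraries, whereas the authors' deposited table gives mean normalized counts of 723, 548 and 1249 for them, so the table and the count files differ for these genes.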
